A study of Mus musculus with 12 samples.

Results

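The receptors through which cells bind native collagen were followed in primary mouse mesangial cells (MMC), the contractile cells that hold the capillaries of the glomerulus together. The members are 8 genes of the 25230 in the count table, taken by symbol: the integrin chains Itgb1, Itga1, Itga2, Itga10 and Itga11, the discoidin domain receptors Ddr1 and Ddr2, and Mrc2. All 8 were found. RNA-seq libraries came from MMC of wild-type (WT) mice and of the lncMGC-knockout line KO5 (KO), which carries a Cas9-made deletion next to the transcription start of the long non-coding RNA lncMGC on a C57BL/6 background. The cells of each genotype were serum-depleted (SD) or given TGF-β at 10 ng/ml, with 24 h on the label of every sample, which makes 4 groups of 3 libraries (WT-SD and KO-SD, WT-TGF and KO-TGF). KO is 1 mouse line, the glomeruli were pooled before culture, and the sources used here do not give the number of mice behind each genotype. A difference between KO and WT thus cannot be told apart from a difference between the cultures.

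Collagen reaches a cell through separate kinds of receptor. The integrin β1 chain (Itgb1) pairs with many α chains, and the α1, α2, α10 and α11 chains make it a collagen receptor that joins the matrix to the actin cytoskeleton. DDR1 and DDR2 are receptor tyrosine kinases that collagen itself activates, and DDR1 is best known from epithelial cells and DDR2 from mesenchymal cells. MRC2 (Endo180, uPARAP) takes up collagen and its fragments for breakdown in lysosomes. In the mesangium, the α1β1 integrin is known for its control of collagen synthesis.

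Each library held between 19898050 and 22827706 counts on genes. A level is given as CPM, a count scaled to the TMM-adjusted total of its library, and genes are compared with each other only as RPKM, the CPM per kilobase of exon. Genes with RPKM >1 in at least 1 library were tested (11529), and a call means FDR <5% in the quasi-likelihood test of edgeR, adjusted by Benjamini-Hochberg over all of them. All 8 members passed this limit, which used RPKM before TMM scaling, and Itga10 passed it only through SD libraries. After the scaling, its 12 libraries had 0.456 to 1.19 RPKM over the exon union. The libraries of a group differed little (biological coefficient of variation 0.0268), so small differences are called: TGF-β alone gave a call for 72.4% of the genes in WT. The labels do not say that the libraries of a group came from separate cultures, so the p-values measure only the spread between these libraries, and exact permutation of 3 against 3 libraries gives no p below 0.1. lncMGC has no row in the count table used here, so its loss was not checked in these libraries, and KO stands for the libraries so labelled. By RT-qPCR, the paper reports that KO5 MMC did not express lncMGC. As for the cell type, the summed level of the 12 mesangial and pericyte markers ran from 2629 to 2766 CPM in WT-SD, 5958 to 6112 in WT-TGF, 5025 to 5186 in KO-SD and 11246 to 11336 in KO-TGF. The muscle proteins Acta2 and Tagln made up most of it, with means of 1567 and 714 CPM in WT-SD and 3249 and 1319 CPM in KO-SD. Of the 9 tested, 7 were higher in KO-SD, Pdgfrb by only 0.09 on the log2 scale, and Des (-3.84) and Foxd1 (-0.50) were lower. Of all genes tested, 30.9% were higher and 25.2% lower in KO-SD. Thy1 was at 0 in every SD library and Itga8, an integrin chain of mesangial cells, was at most 3.05 CPM on average.

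Of the 8 members, 7 were called between WT-TGF and WT-SD, 4 of them higher and 3 lower with TGF-β, against 72.4% of all genes tested (36.0% higher, 36.4% lower). In KO all 8 were called with TGF-β, 3 higher and 5 lower, against 74.0% of all genes (34.9% higher, 39.1% lower). At fold change >2, Itga1, Itga11 and Itgb1 were called with TGF-β in both genotypes, as were 9.91% of all genes in WT and 13.5% in KO. Between genotypes, 6 of 8 were called in SD (3 higher and 3 lower in KO), against 56.1% of all genes (30.9% higher, 25.2% lower), and 8 of 8 after TGF-β (2 higher and 6 lower), against 55.0% (27.2% higher, 27.8% lower). The median log2 fold change of the 8 in KO was -0.05 in SD and -0.45 after TGF-β, beside 0.02 and 0.00 for all genes tested. At fold change >2, Itga2 and Ddr2 were called between genotypes in SD and Itga2, Itga11 and Ddr2 after TGF-β, where 6.44% and 6.06% of all genes were. The members thus did not move as a block, and they are described by role, the shared β chain first. The comparisons share groups (WT-SD serves in both WT-TGF and KO-SD comparisons, and so on), so agreement between them is not independent.

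**Figure D1:**
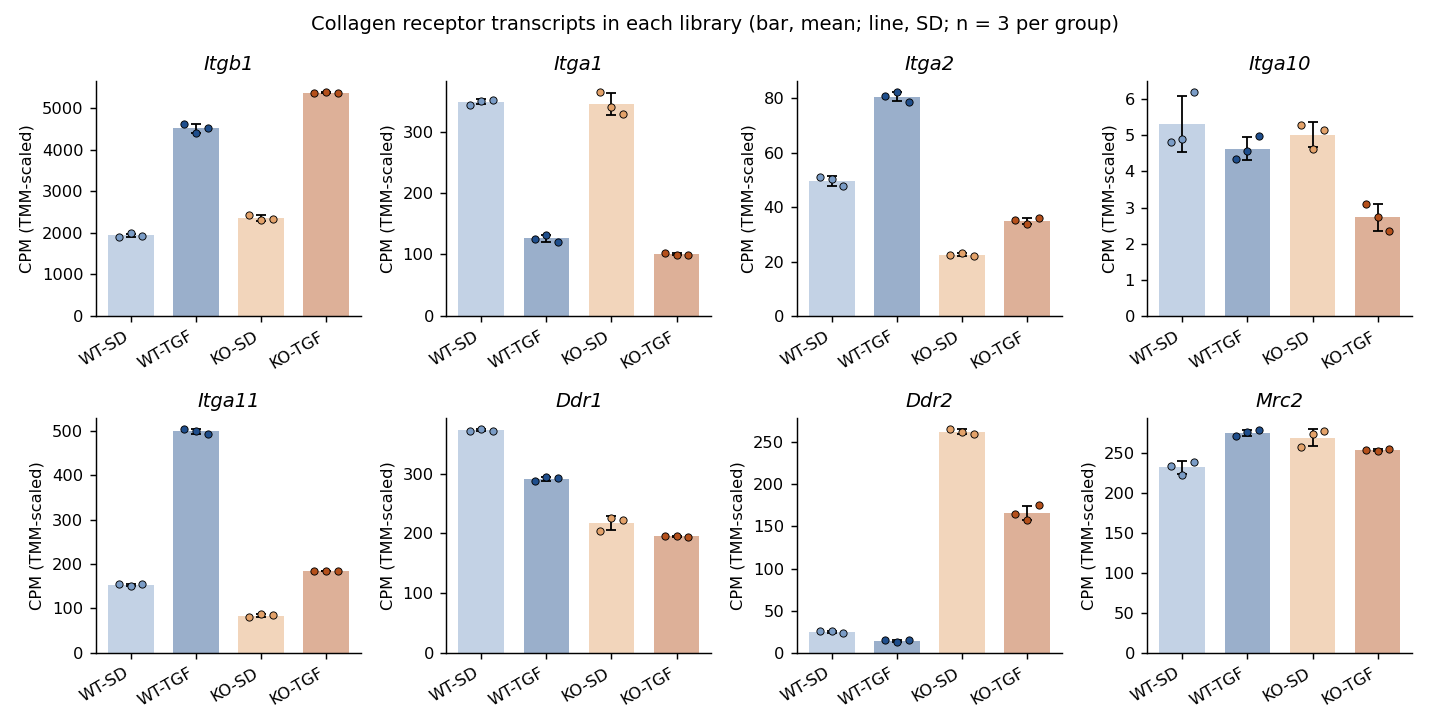
Level of each collagen receptor in CPM (TMM-scaled, linear axes from 0) in the 4 groups of 3 libraries; points are libraries, bars the mean and lines the SD. Ddr2 lies between 12.7 and 25.8 CPM in WT and between 158 and 266 CPM in KO, while Itgb1 and Itga11 rise and Itga1 falls with TGF-β in both genotypes.

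The sequences at the starts of Ddr2, Itga11 and Itgb1 are shown because these genes carry the largest difference between genotypes, the largest rise with TGF-β in WT and the highest level. Each runs 5′ to 3′ on the strand of the gene, from 250 bases before to 50 bases after a RefSeq start, in GRCm38.p6, and 7 of the 8 genes had such a window. Capitals mark the Smad box CAGAC and the TATA letters TATAAA, searched on both strands.
Ddr2, chr1:170088895-170089194, minus strand: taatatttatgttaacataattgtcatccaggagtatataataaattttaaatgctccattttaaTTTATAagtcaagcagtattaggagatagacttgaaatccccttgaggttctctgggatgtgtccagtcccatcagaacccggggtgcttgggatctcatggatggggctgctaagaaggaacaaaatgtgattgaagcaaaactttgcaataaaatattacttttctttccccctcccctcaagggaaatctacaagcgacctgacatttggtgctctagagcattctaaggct
Itga11, chr9:62677605-62677904, plus strand: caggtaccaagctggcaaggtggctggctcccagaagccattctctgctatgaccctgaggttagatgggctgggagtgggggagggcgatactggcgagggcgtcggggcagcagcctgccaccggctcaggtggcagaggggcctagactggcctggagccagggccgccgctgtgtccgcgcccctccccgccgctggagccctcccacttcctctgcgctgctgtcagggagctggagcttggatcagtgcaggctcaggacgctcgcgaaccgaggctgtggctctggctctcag
Itgb1, chr8:128685404-128685703, plus strand: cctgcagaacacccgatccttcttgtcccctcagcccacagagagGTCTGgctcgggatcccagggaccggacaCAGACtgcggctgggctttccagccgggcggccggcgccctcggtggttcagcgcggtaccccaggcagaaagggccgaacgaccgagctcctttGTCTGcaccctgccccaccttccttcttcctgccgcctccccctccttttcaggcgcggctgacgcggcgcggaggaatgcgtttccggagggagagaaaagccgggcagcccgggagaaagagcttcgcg
The Ddr2 window is poor in CpG, with 2 of these dinucleotides and 39% G and C, where the median over 32851 mouse windows was 7 CpG. It holds TATAAA on the opposite strand 185 bases before the start, as 13.6% of all windows hold these letters, and no Smad box. It belongs to a start inside the annotated span of Ddr2, which reaches to 170110836, and the counts do not show which start was used. The Itga11 window holds 16 CpG and none of the letters searched. The Itgb1 window holds 27 CpG and 3 Smad boxes, 205, 176 and 81 bases before the start, the Itga2 window 3 and the Itga1 window 1. Of the 4 windows of Ddr1, a gene that fell with TGF-β, 3 hold 2, 2 and 1, and the Itga10 window holds none. At least 1 occurs in 49.6% of all windows. Of the other motifs searched on both strands, the GC box GGGCGG occurs once in the Itgb1 window and in 35.7% of all windows, the TEAD letters GGAATG once in it and in 14.7%, and the AP-1 letters TGANTCA in none of the 3 windows and in 7.81% of all.

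Itgb1 (NCBI gene 16412, chromosome 8 from 128685654 to 128733579, plus strand, in GRCm38, which mm10 names too) encodes the β1 chain that every collagen-binding integrin here needs. It was at 1910, 1986 and 1933 CPM in WT-SD and at 4623, 4394 and 4528 CPM in WT-TGF. In KO it was at 2440, 2299 and 2329 CPM in SD and at 5370, 5387 and 5373 CPM with TGF-β. The 4 groups did not overlap, with each TGF group above both SD groups and KO above WT within each condition. The log2 fold change with TGF-β was 1.22 (standard error 0.0225, adjusted p = 1.65e-28) in WT and 1.19 (standard error 0.0224, adjusted p = 1.99e-28) in KO. The difference between these responses was -0.03 with a 95% interval from -0.09 to 0.04 (adjusted p = 0.61). The excess in KO was 1.21-fold in SD and 1.19-fold after TGF-β.

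Itga11 (NCBI gene 319480, chromosome 9 from 62677855 to 62783979, plus strand) encodes the α11 chain, a receptor for fibrillar collagen on fibroblasts and other mesenchymal cells. Among the 8 genes it showed the largest rise with TGF-β in WT, while in KO the rise of Itgb1 was slightly larger (log2 fold change 1.19 against 1.15, a difference that was not tested). The WT-SD libraries were at 154, 151 and 155 CPM and the WT-TGF libraries at 505, 500 and 494 CPM, a 3.26-fold rise (log2 fold change 1.70, standard error 0.0268, adjusted p = 2.58e-30). KO started lower, at 80.1, 86.8 and 84 CPM in SD, and reached 184, 185 and 185 CPM with TGF-β, a 2.21-fold rise (log2 fold change 1.15, standard error 0.0299). The KO-TGF libraries were thus above the WT-SD libraries and well below the WT-TGF libraries. The log2 response was smaller in KO by a tested difference of -0.56 (standard error 0.04, adjusted p = 2.32e-12). In level, Itga11 was lower in KO by log2 fold changes of -0.88 in SD (adjusted p = 3.13e-21) and -1.43 after TGF-β (adjusted p = 7.32e-28).

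Itga1 (NCBI gene 109700, chromosome 13 from 114958079 to 115101964, minus strand) encodes the α1 chain, which binds collagen IV and other collagens. It moved against its partner Itgb1. Itga1 was at 344, 349 and 352 CPM in WT-SD and at 125, 132 and 121 CPM in WT-TGF, a 2.76-fold fall (log2 -1.47, adjusted p = 2.5e-26, standard error 0.0331). In KO it was at 364, 340 and 329 CPM in SD and at 102, 99.7 and 99 CPM with TGF-β (log2 fold change -1.78, standard error 0.0345, adjusted p = 4.03e-28). The SD libraries of both genotypes overlapped (log2 fold change -0.02, 95% interval from -0.08 to 0.04, adjusted p = 0.684), while every KO-TGF library lay below every WT-TGF library (log2 fold change -0.33, adjusted p = 5.11e-09). The fall was larger in KO by -0.31 on the log2 scale (standard error 0.0478, adjusted p = 6.72e-06). The gene Pelo lies within the span of Itga1, on the same strand, and how the counting assigned reads from their shared stretch was not tested.

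Itga2 (NCBI gene 16398) is the neighbor of Itga1 on chromosome 13, from 114833081 to 114932100 on the same strand, and encodes the α2 chain, a receptor for fibrillar collagen known from platelets and epithelial cells. Its direction with TGF-β was the opposite of that of Itga1. Itga2 was at 51.1, 50.4 and 47.6 CPM in WT-SD and at 80.7, 82.2 and 78.8 CPM in WT-TGF, a 1.62-fold rise (log2 0.70, adjusted p = 1.78e-16, standard error 0.038). In KO it rose from 22.4, 23.3 and 22 CPM to 35.2, 33.7 and 35.9 CPM (log2 fold change 0.63, standard error 0.0503, adjusted p = 1.35e-12). All KO-TGF libraries stayed below all WT-SD libraries. The level was 2.2-fold lower in KO-SD and 2.3-fold lower in KO-TGF (adjusted p = 2.33e-19 and 3.98e-21), and the difference between the responses was -0.06 with an interval from -0.19 to 0.06 (adjusted p = 0.515).

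Itga10 (NCBI gene 213119, chromosome 3 from 96645584 to 96664519, plus strand) encodes the α10 chain, the collagen receptor best known from cartilage. It had the fewest counts and the lowest RPKM of the 8 genes, with 106 to 136 counts in WT-SD, 92 to 102 in WT-TGF, 96 to 115 in KO-SD and 45 to 58 in KO-TGF. In CPM the libraries were at 4.82, 4.9 and 6.19 in WT-SD, 4.35, 4.55 and 4.99 in WT-TGF, and 5.28, 4.63 and 5.14 in KO-SD. These 3 groups overlapped each other. Only the KO-TGF libraries, at 3.11, 2.73 and 2.36 CPM, lay apart. The log2 fold change with TGF-β was -0.88 in KO (standard error 0.148, adjusted p = 4.1e-06) and -0.20 in WT (standard error 0.126, adjusted p = 0.161), and the difference was -0.68 (standard error 0.195, adjusted p = 0.0091). Without KO-TGF replicate 3 this difference was -0.55 and no longer called (adjusted p = 0.0591).

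Ddr2 (NCBI gene 18214, chromosome 1 from 169972307 to 170110836, minus strand) encodes the kinase receptor for fibrillar collagen of mesenchymal cells. It differed between the genotypes more than any other member. In WT-SD 554, 595 and 502 counts fell on Ddr2, and in KO-SD 5801, 5431 and 5672. In CPM, WT-SD was at 25.2, 25.8 and 22.8, WT-TGF at 14.6, 12.7 and 14.8, KO-SD at 266, 262 and 260 and KO-TGF at 165, 158 and 175. No group overlapped another. Ddr2 was 10.7-fold higher in KO in SD (log2 3.42, adjusted p = 8.57e-32, standard error 0.0438) and 11.9-fold higher after TGF-β (log2 3.57, adjusted p = 1.1e-30, standard error 0.0505). These differences were among the known results when the genes were chosen. TGF-β lowered Ddr2 in both genotypes, by -0.81 on the log2 scale in WT (standard error 0.0647, adjusted p = 1.6e-12) and -0.66 in KO (standard error 0.035, adjusted p = 6.16e-17). The difference of the responses, 0.15 (standard error 0.0742), was not called (adjusted p = 0.14) but was 0.22 and called without KO-TGF replicate 2 (adjusted p = 0.0278). The annotated antisense gene 3110045C21Rik overlaps the 3′ end of Ddr2, and the authors' counting used the strand.

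Ddr1 (NCBI gene 12305, chromosome 17 from 35681567 to 35704741, minus strand) encodes the kinase receptor for fibrillar collagens and collagen IV. It was at 372, 375 and 372 CPM in WT-SD and at 288, 295 and 292 CPM in WT-TGF. In KO it was at 204, 226 and 223 CPM in SD and at 196, 195 and 194 CPM with TGF-β. Every KO library was below every WT library, the reverse of Ddr2, with log2 fold changes of -0.78 in SD (standard error 0.0292, adjusted p = 3.38e-20) and -0.58 after TGF-β (standard error 0.03, adjusted p = 1.03e-16). Ddr1 fell with TGF-β by -0.35 on the log2 scale in WT (adjusted p = 2.4e-12) and by -0.16 in KO (adjusted p = 2.71e-05). The response in KO was less negative by 0.20 (standard error 0.0418, adjusted p = 0.000579).

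Mrc2 (NCBI gene 17534, chromosome 11 from 105292093 to 105351146, plus strand) was the most even of the 8 genes, with 223 CPM in the lowest library and 279 CPM in the highest. The WT libraries rose from 234, 223 and 239 CPM in SD to 271, 276 and 279 CPM with TGF-β (log2 fold change 0.25, standard error 0.0289, adjusted p = 7.25e-09). The KO libraries were at 257, 274 and 277 CPM in SD and at 254, 252 and 255 CPM with TGF-β, a log2 fold change of -0.09 that was called (adjusted p = 0.00862) but not without KO-SD replicate 3 (adjusted p = 0.0572) or without any single KO-TGF library (adjusted p = 0.0618 to 0.113). The response was lower in KO by -0.33 (standard error 0.041, adjusted p = 1.63e-07). Mrc2 was therefore higher in KO in SD (log2 fold change 0.22, adjusted p = 1.62e-07) but lower there after TGF-β (-0.12, adjusted p = 0.00102).

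**Figure D2:**
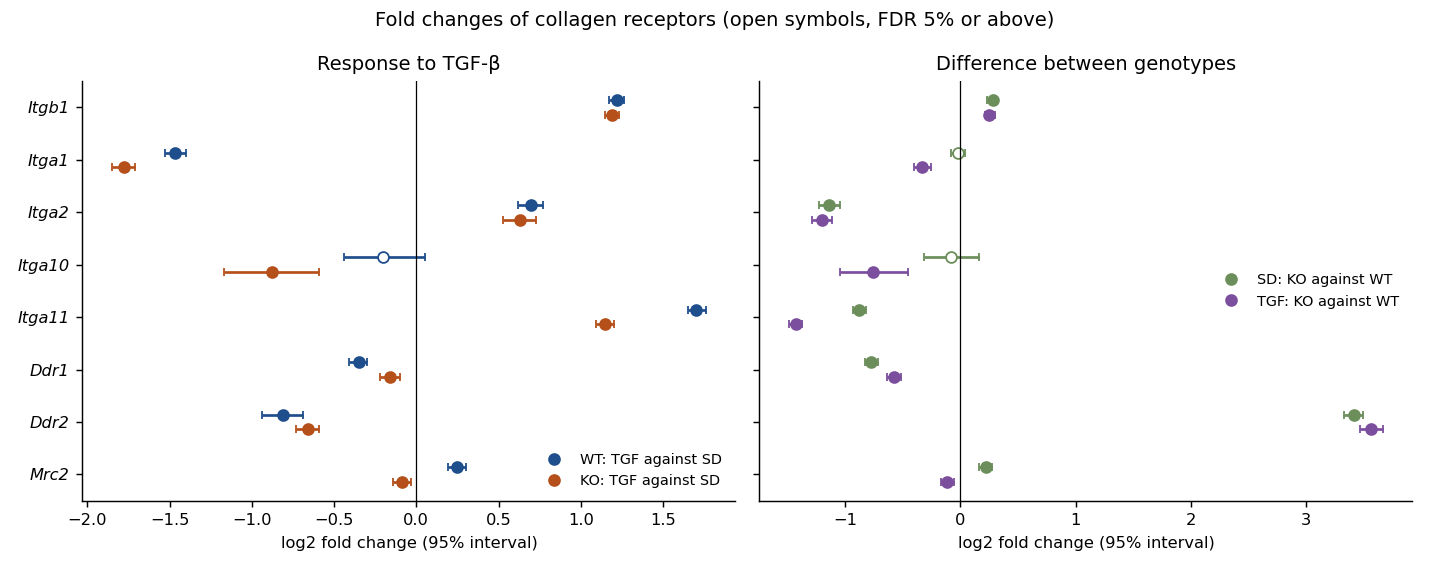
Log2 fold changes of the 8 genes with 95% intervals (normal approximation from the fit of 12 libraries, 3 per group), for TGF-β against SD in each genotype (left) and for KO against WT in each condition (right); open symbols were not called. Itga11 responds with 1.70 in WT and 1.15 in KO, and Ddr2 stands at 3.42 and 3.57 between the genotypes while most other genes lie at or below 0 after TGF-β.

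The difference between the TGF-β responses was called for 5 of the 8 genes (Itga1, Itga10, Itga11, Ddr1 and Mrc2), against 25.3% of all genes tested. It was negative in KO for 4 of them and positive for Ddr1, where 16.6% of all genes were negative and 8.67% positive. The response differences of Itga2, Itgb1 and Ddr2 were not called.

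Per length of exon, Itgb1 led in every group, with 509 ± 10.3 RPKM (SD, n = 3) in WT-SD, 1183 ± 30.1 in WT-TGF, 618 ± 19.4 in KO-SD and 1409 ± 2.47 in KO-TGF. In WT-SD it was followed by Ddr1 at 92.7 ± 0.448 RPKM, Mrc2 at 40 ± 1.35, Itga1 at 31.8 ± 0.336, Itga11 at 30.9 ± 0.402, Itga2 at 6.99 ± 0.262, Ddr2 at 2.97 ± 0.188 and Itga10 at 1.05 ± 0.153. The order of Itga1 and Itga11 there depends on the length taken for Itga1, which was 10967 bases in transcripts matched to RefSeq and 18599 in the union of all GENCODE exons. With the union Itga1 was at 18.7 RPKM and Itga11 at 29.9. Every order below that involves Itga1 depends on this choice as well. In WT-TGF Itga11 moved up to 101 ± 1.14 RPKM, above Ddr1 at 72.5 ± 0.867, while Itga1 at 11.5 ± 0.499 and Itga2 at 11.3 ± 0.234 did not differ beyond their spread. With the union they did, at 6.77 RPKM for Itga1 and 11.3 for Itga2. In KO-SD Ddr2, at 31.7 ± 0.391 RPKM, overlapped Itga1 at 31.4 ± 1.63 and ranked above Itga11 at 16.8 ± 0.678. With the union Ddr2 was at 28.4 RPKM, clear of Itga1 at 18.5. In KO-TGF the order after Itgb1 was Ddr1 at 48.4 ± 0.228, Mrc2 at 43.8 ± 0.283, Itga11 at 37.2 ± 0.103 and Ddr2 at 20 ± 0.991 RPKM. Other neighbors in these orders did not overlap between libraries.

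The make-up of the receptors shows the same data without the scaling between libraries, as a share of the summed RPKM, and it was computed after the levels were known. Among the 4 collagen-binding α chains, Itga11 held 43.7% ± 0.342 (SD, n = 3) in WT-SD and 80.9% ± 0.406 in WT-TGF, and 32.1% ± 1.75 in KO-SD and 71.8% ± 0.427 in KO-TGF. Itga1 went the other way, from 44.9% ± 0.372 to 9.24% ± 0.32 in WT and from 59.9% ± 1.85 to 17.7% ± 0.274 in KO. With the exon union as length the share of Itga11 was 52.8% in WT-SD and 41.9% in KO-SD, and the order of the groups was kept. Unlike the shares, the summed RPKM of the 4 chains keeps the TMM scaling between libraries and was not computed without it. This sum rose with TGF-β in WT, from 70.6, 70.3 and 71.2 to 125, 125 and 122. In KO it was 53.5, 52.7 and 51 in SD and 52, 51.6 and 51.9 with TGF-β, and these groups overlapped. This too rests on the length of Itga1, since with the union (computed after the data were seen) the sum in KO was 39.3, 39.4 and 38.1 in SD and 47, 46.7 and 47 with TGF-β, which did not overlap. In WT it was then 56.2 to 57 in SD and 115 to 117 with TGF-β. Itgb1 had 7.1 to 7.41 times the RPKM of that sum in WT-SD, 9.21 to 9.69 times in WT-TGF, 11.4 to 12 times in KO-SD and 27.1 to 27.4 times in KO-TGF (with the union 8.26 to 8.66, 9.21 to 9.67, 14.3 to 15.2 and 28 to 28.3 times). Of the discoidin receptors, Ddr2 held 3.1% ± 0.181 of the summed RPKM in WT-SD, 2.28% ± 0.203 in WT-TGF, 37% ± 1.6 in KO-SD and 29.3% ± 1.06 in KO-TGF.

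**Figure D3:**
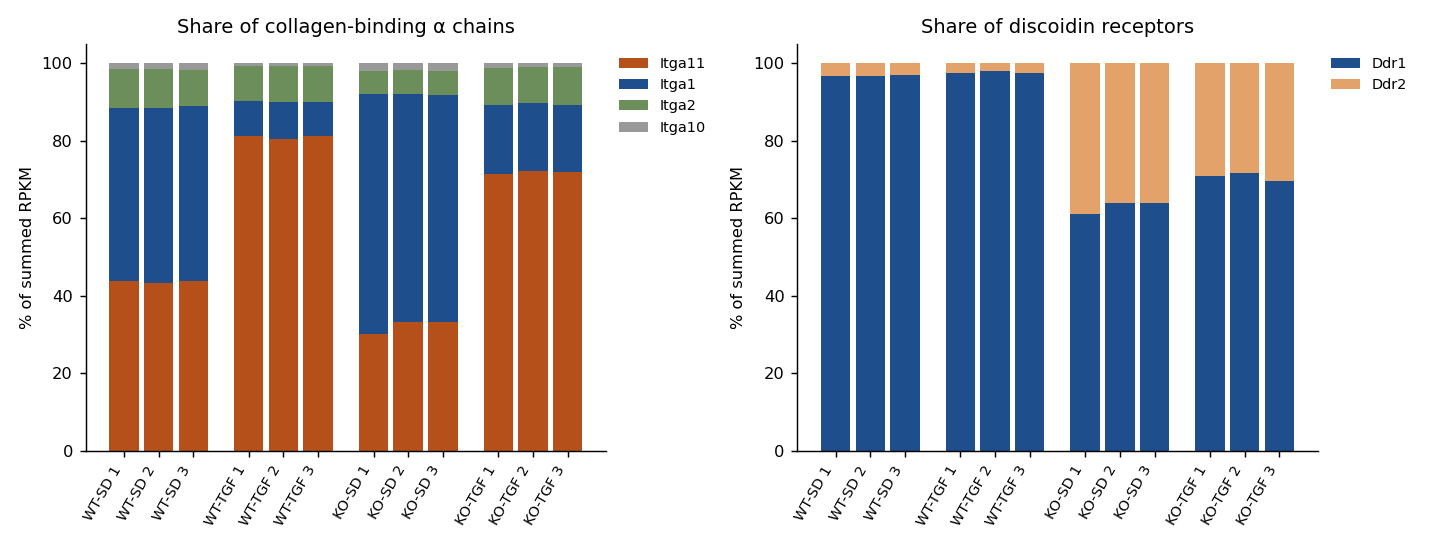
Share of each gene in the summed RPKM of the 4 collagen-binding α chains (left) and of the discoidin receptors (right), in %, with 1 bar for each of the 12 libraries. Itga11 takes 80.4% to 81.2% of the α chains in WT-TGF and 71.3% to 72.2% in KO-TGF, and Ddr2 takes 36% to 38.8% of the discoidin receptors in KO-SD against 2.9% to 3.23% in WT-SD.

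Markers of other cell types also differed between the genotypes, and they are given here because several of the receptors are known from such cells. The summed level of 12 tubular and parietal epithelial markers ran from 527 to 548 CPM in WT-SD, 170 to 184 in WT-TGF, 225 to 244 in KO-SD and 79.6 to 84.1 CPM in KO-TGF. Of these markers 5 were tested, and 4 were lower in KO in each condition (Cdh16, Cldn1, Lrp2 and Pax8) while Krt19 was higher. Of all genes tested, 25.2% were lower and 30.9% higher in KO-SD, and 27.8% lower and 27.2% higher in KO-TGF. These shares also stand beside the marker counts that follow. Pax8 and Cldn1, with means of 241 and 229 CPM, made up most of the sum in WT-SD. Epcam and Cdh1 were at 9 counts or fewer in every library. Slc34a1, Umod and Aqp2 were at 0 in all libraries. Like Ddr1, the sum was lower in KO within each condition and lower with TGF-β within each genotype, but it was higher in KO-SD than in WT-TGF, where Ddr1 was lower. Itga2, also lower in KO, rose with TGF-β in both genotypes. The 7 podocyte markers summed to 459 to 468 CPM in WT-SD, 455 to 474 in WT-TGF, 218 to 227 in KO-SD and 205 to 220 in KO-TGF, and the 4 tested were all lower in KO in both conditions. The 9 macrophage markers fell from 36.5 to 39.9 CPM in WT-SD to 8.13 to 9.77 in KO-SD, and after TGF-β they were at 19.6 to 23.5 CPM in WT and 2.3 to 2.68 in KO, with Adgre1, C1qa and C1qb at 0 in KO. The 7 endothelial markers summed to 51.1 to 52.7 CPM in WT-SD, 59.3 to 65.6 in WT-TGF, 27.7 to 29.2 in KO-SD and 23 to 23.8 in KO-TGF, with Cdh5 at 2 counts or fewer. The 7 markers of interstitial fibroblasts summed to 25.6 to 29.7 CPM in WT-SD and 78.4 to 83.4 in KO-SD, and after TGF-β to 8.02 to 8.89 in WT and 23.6 to 24.3 in KO. Like Ddr2, the sum was higher in KO within each condition and lower with TGF-β within each genotype, but in KO-TGF it was below WT-SD, where Ddr2 was above. Of the 3 of them that were tested, Dcn was higher in KO in both conditions (9.83 and 59.3 CPM in SD), Col14a1 only in SD, and Scara5 was lower after TGF-β. The part of these cells in the differences of Ddr1, Ddr2 and Itga2 was not tested, and in such bulk libraries fewer cells of a type and less RNA per cell cannot be told apart.

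The collagen ligands of these receptors were read from a list of 16 genes, 15 of them tested. In WT 12 rose and 1 fell with TGF-β, and in KO 11 rose and 3 fell, where 36.0% of all genes rose and 36.4% fell in WT and 34.9% rose and 39.1% fell in KO. These shares also stand beside the counts with TGF-β of the lists that follow. Between genotypes 12 were higher and 2 lower in KO-SD, and 13 higher and 2 lower in KO-TGF, with median log2 fold changes of 1.22 and 0.94. Of all genes tested, 30.9% were higher and 25.2% lower in KO-SD, and 27.2% higher and 27.8% lower in KO-TGF. The collagens with the largest excess in KO-SD were Col3a1 (log2 fold change 3.14), the chain of type III collagen, and Col6a3 (3.07), a chain of type VI collagen. Col6a3 was low in WT-SD, with 18 to 26 counts and a mean of 0.958 CPM, against 8.03 CPM in KO-SD. After TGF-β the log2 fold changes were 2.68 for Col3a1 and 0.94 for Col6a3. The collagens lower in KO-SD were Col1a2 (-0.74), the α2 chain of type I collagen, and Col2a1 (-0.43), the chain of cartilage collagen. Col4a3 and Col4a4, which the paper reports as lower in KO by RNA-seq in both conditions, are not in the list. By RT-qPCR the paper found them lower in KO with TGF-β but not in SD. The counts above thus leave out these type IV collagen chains.

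Of the 8 other α chains that pair with β1, 5 were tested. Itga5, the fibronectin receptor chain, had mean CPM of 172 without and 1193 with TGF-β in WT, and 236 and 1994 in KO, and was higher in KO by 0.45 on the log2 scale in SD and 0.74 after TGF-β. With TGF-β, 3 of the 5 rose and 2 fell in WT, and 2 rose and 2 fell in KO, beside 72.4% and 74.0% of all genes called. In SD, Itga5 and Itga7 (0.30) were higher and Itga3 (-0.59), a laminin receptor chain, lower in KO, and after TGF-β Itga5 and Itgav (0.07) were higher and Itga3 (-0.92) lower.

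Inside the cell, β1 integrins work through talin, kindlin and the adaptor proteins of focal adhesions. Of 29 such genes 26 were tested, and with TGF-β 17 rose and 4 fell in WT and 20 rose and 3 fell in KO. In KO, 15 were higher and 7 lower in SD (median 0.16) and 18 higher and 3 lower after TGF-β (median 0.30). The largest excess in KO-SD was that of Parvb (1.12) and Vcl (1.04), both of which link integrins to actin. The genes furthest below were Kank1 (-0.80), which binds talin, and, far less, Fyn (-0.22), a Src family kinase, level with Pxn (-0.22), the scaffold paxillin. Of 15 genes reported to act with or after the discoidin receptors 14 were tested, with 6 higher and 3 lower in KO-SD (median 0.06) and 6 higher and 4 lower in KO-TGF (median 0.09), and 7 that rose and 6 that fell with TGF-β in each genotype. The membrane protease Mmp14 (1.03) and the adaptor Nck2 (0.19) were higher and the gelatinase Mmp2 (-0.57) and Stat5a (-0.34) lower in KO-SD. Of 10 other receptors that bind collagen or share the fold of MRC2, 4 were tested, and in each genotype 2 rose and 1 fell with TGF-β. Sdc1 (0.41) and Cd44 (0.15) were higher and Adgrg1 (-1.66), an adhesion receptor for collagen III, lower in KO-SD, and after TGF-β 2 were higher and 1 lower. Beside these counts between genotypes stand the 56.1% of all genes called in SD (30.9% higher, 25.2% lower in KO) and the 55.0% called after TGF-β (27.2% higher, 27.8% lower).

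**Figure D4:**
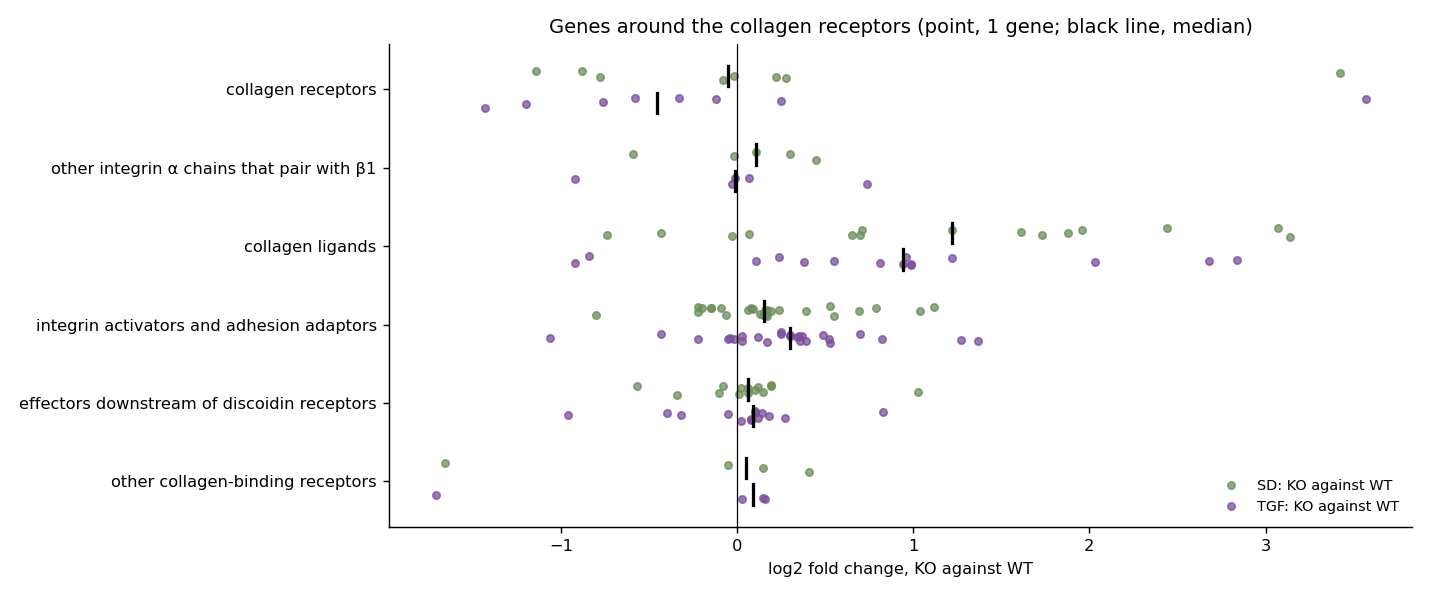
Log2 fold change of KO against WT for each tested gene of the receptor list and of 5 lists around it (points, 1 gene each, spread vertically for visibility), in SD and after TGF-β; black lines are medians. The collagen ligands have medians of 1.22 and 0.94, while the receptors have -0.05 and -0.45 with Ddr2 alone above 3.

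The genes whose log2 CPM followed each receptor most closely over the 12 libraries were picked among the other tested genes with at least 5 CPM in a group (10501 genes), and these correlations mainly follow the 4 group means that the genes share. Ddr2 was followed by Nid1 (Pearson r = 0.9984) and Plac8 (0.9968), Ddr1 by H2-K1 (0.9956) and Mlh3 (0.9888), and Itga11 by Il4ra (0.9967) and F2r (0.9935). Itga1 was followed by Pde3a (0.9986) and Aldh6a1 (0.9982), Itga2 by Dlc1 (0.9978) and Sp6 (0.9966), and Itgb1 by Ccn4 (0.9991) and Cdc42bpa (0.9990). The closest genes to Itga10 (Mfap2, 0.9726) and Mrc2 (Mcm6, 0.9360) were less close. Between members, Ddr2 and Itga2 had r = -0.95, Ddr1 and Ddr2 -0.83, Itga1 and Itgb1 -0.99, and Itga2 and Itga11 0.92, as a description of the same 12 libraries.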

How the data were processed

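RNA-seq libraries of 12 MMC samples were analysed, 3 in each of 4 groups taken from the sample titles. According to the methods, the authors used TopHat for alignment of single-end mRNA reads (mm10) and HTSeq for strand-specific counting over RefSeq genes. The deposited values are raw counts per gene, without normalization. Totals of unassigned reads were left out (no feature, 10.3% to 15.4% of a library). After TMM scaling, genes were tested with edgeR 4.0.16 under R 4.3.3 in one quasi-likelihood fit with a mean per group, over genes with RPKM >1 in at least 1 library, with exon unions from GENCODE vM21 as length. Intervals cover the fit only. Member RPKM in the text used transcripts matched to RefSeq. The fit was also run on simulated counts in which 200 genes were changed. In the real libraries most genes were called in every comparison of 2 groups, so that run does not bear on the p-values given here. The deviations of same-numbered libraries of different groups from their group means had r from -0.03 to 0.08 over 18 pairs. For libraries with different numbers r ran from -0.09 to 0.04 over 36 pairs. With libraries of a group this alike, such small values cannot show whether the numbers pair them, and the fit used no pairing. Alternatives were library size, DESeq2 size factors, DESeq2 1.42.0, a likelihood ratio test, other filters, fits of only the groups compared, the replicate block and each library left out. All 8 members are named, with the 2 most correlated genes each (for Itga10 and Mrc2, 1 is given) and the 2 largest differences in each direction per list in KO-SD; Itgav and markers were named after their values were seen. Members and lists were chosen with earlier results of these data known. RefSeq sequences are from GRCm38.p6.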

Additional observations from a re-analysis of the deposited data

Results flagged for a closer look

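By the interaction test, the TGF-β response differed between the genotypes for 5 of the 8 receptors, against 25.3% of all genes tested. The share called negative was 16.6% of all genes and the share called positive 8.67%. On the log2 scale, KO minus WT, the difference was -0.56 for Itga11, -0.68 for Itga10, -0.31 for Itga1, -0.33 for Mrc2 and 0.20 for Ddr1. Without KO-TGF replicate 3 the Itga10 difference was no longer called (adjusted p = 0.0591). For Itga11, Mrc2 and Itga1 the lower response in KO came as a smaller rise, a rise against a slight fall, and a deeper fall.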

How the results depend on the processing

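Of 791 values of the 8 receptors under the alternatives, 774 kept their sign and their side of FDR <5%, and 32 of 40 combinations of gene and contrast did so under every alternative that gave a value. Itga10 gave none after TGF-β in the fit of only WT-TGF and KO-TGF, where it was under the RPKM limit. The receptors called ranged from 6 to 7 in KO-SD against WT-SD, 7 to 8 in the other comparisons of 2 groups, and 4 to 6 for the interaction. The main fit called 55.0% to 74.0% of all genes in the comparisons of 2 groups and 25.3% for the interaction. The sign reversed only for differences that were not called: Itga1 in SD was 0.01 without a filter and 0.02 without KO-SD replicate 3, Itga10 in SD was 0.05 without WT-SD replicate 3, and the interaction was 0.00 for Itga2 without KO-TGF replicate 2 and, for Itgb1, 0.00 with DESeq2 or its size factors and 0.01 without any single KO-TGF library. With single libraries left out, these differences ran from -0.06 to 0.02 for Itga1 and from -0.14 to 0.05 for Itga10 in SD, and for the Itgb1 interaction from -0.05 to 0.01. Scaled by library size, without TMM, the median of all genes was -0.23 for KO-TGF against KO-SD (-0.03 with TMM), -0.16 for WT-TGF against WT-SD (-0.00) and -0.13 for KO-TGF against WT-TGF (-0.00), and the test called Itga1 in SD (-0.09) and Itga10 with TGF-β in WT (-0.35). With single libraries left out, the calls of the Itga10 interaction and of Mrc2 with TGF-β in KO were lost, and a call of the Ddr2 interaction was gained, as given above. Without a filter, genes past fold change >2 numbered 2031 and 2506 with TGF-β in WT and KO, 1607 and 1472 between genotypes in SD and TGF, and 496 for the interaction, against 1143, 1559, 743, 699 and 315, with more genes tested. With the replicate number as a block, 5 receptors were called for the interaction, 6 in SD between genotypes, 7 with TGF-β in WT and 8 in the other 2 comparisons, and the genes called at FDR <5% for the interaction were 3169 against 2915. Of the 11529 genes tested, the block fit called 8447 with TGF-β in WT and 8611 in KO. Between genotypes it called 6645 in SD and 6500 after TGF-β. At under 140 counts per library, Itga10 has the widest errors. The causes of these shifts were not tested.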
